A study of Homo sapiens with 6 samples.

Results

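The genes examined here are 10 regulators of the integrated stress response: the kinase genes EIF2AK3 and EIF2AK4, the transcription factor genes ATF4, ATF5, DDIT3, CEBPB and CEBPG, and the feedback genes TRIB3, CHAC1 and PPP1R15A. They were chosen by gene symbol through the annotation of the array platform, and all 10 had 1 row each among the 23786 rows of the expression table. Transcripts were profiled on microarrays in HSC3 cells, an established human oral squamous carcinoma line, with 3 wells treated with 0.1 μM E7386 and 3 wells given 0.1% dimethyl sulfoxide (DMSO) alone. E7386 is a small molecule described as blocking the interaction of β-catenin with its coactivator CREB-binding protein. Treatment began 12 to 24 hours after seeding, at about 50% confluence, and cells were harvested 48 to 64 hours later. The sources used here do not give the hour of each well. The titles call the wells biological replicates, but nothing says that they came from separate experiments. The p-values therefore measure the spread between these wells, which may be technical.

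In the integrated stress response, kinases that sense different stresses phosphorylate the translation initiation factor eIF2. PERK, encoded by EIF2AK3, senses unfolded protein in the endoplasmic reticulum (ER), and GCN2, encoded by EIF2AK4, senses uncharged tRNA. Phosphorylated eIF2 inhibits its own exchange factor eIF2B and lowers general translation, while upstream open reading frames let the mRNAs of ATF4, ATF5 and DDIT3 be translated better. ATF4 then pairs with C/EBP family proteins on composite DNA elements of amino acid and stress genes. PPP1R15A brings protein phosphatase 1 to eIF2 and so ends the response. Only transcript levels were measured, and neither eIF2 phosphorylation nor ATF4 protein was.

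Values are log2 expression values after RMA, the normalization made by the authors, and differences are E7386 minus DMSO on that scale. A gene was called when its two-sided limma p, adjusted over all 23786 rows, was under 0.05. Arrays of the same treatment correlated at 0.992 to 0.995 across genes and arrays of different treatments at 0.982 to 0.985. The 9 measured squamous epithelial markers lay at or above the 85.4th percentile of all rows in DMSO and the 87.6th with E7386. Of these, the keratin genes KRT14 and KRT5 fell by 1.64 and 0.79 on the log2 scale, the desmosomal cadherin gene DSG3 rose by 0.59 and the laminin gene LAMB3 by 0.36, and 5 were not called. Their part in the results on the regulators was not tested. Of 17 measured leukocyte, fibroblast and endothelial markers, 14 lay below the median row in each group, and limma called none of them. COL1A1, a collagen gene of fibroblasts, was the brightest of these at 5.25 in DMSO and 5.30 with E7386, CLDN5 of endothelial cells was at 4.46 and 4.20, and CSF1R of macrophages at 3.96 and 3.75. The number of arrays limits the precision, and a typical row had a within-group standard deviation (SD) of 0.15, the median over rows. In bulk cells a change in the share of responding cells and a change per cell cannot be told apart.

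Of the 10 regulators, 7 rose with E7386, 1 fell and 2 were not called. Over all rows, 9.93% were called higher and 8.69% lower, and among the brighter 11893 rows, those at or above the median row, the shares were 18.2% and 15.1%. All 10 regulators lay above the median row in DMSO. Their median difference was 0.72, against -0.016 over all rows and 0.024 over the brighter rows. In 9 of the 10, the wells of one treatment all lay on one side of the other, which held for 35.2% of all rows. The E7386 wells were above in 7 of these regulators and below in 2. Of the 11893 brighter rows, the E7386 wells lay all above in 3653 and all below in 3037, a larger share than over all rows. The count of regulators called higher was 6 without the third E7386 well, since PPP1R15A lost its call. The count over all rows then fell from 4430 to 2907, so the background shares fell as well.

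The promoters are shown here because ATF4 and C/EBP proteins are known to bind the C/EBP-ATF response element, which reads TGATGNAA. In the RefSeq promoter table (GRCh38.p14) all 10 regulators had at least 1 start site, and the 250 bases before each of their 18 start sites were searched on both strands. The element was found for 2 of the 10 genes, CHAC1 and CEBPG, both of which rose. Over all 27305 genes of that table, 3.89% held it, and of all 35116 windows 3.14% did. A gene with more start sites has more windows in which to match, and CEBPG held the element before only the later of its 2 starts. The following lines show the element in capitals with its flanks, read 5′ to 3′ on the strand that carries TGATGNAA, for the regulators and for genes of the pathway lists described later.
CHAC1: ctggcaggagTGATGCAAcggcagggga
CEBPG: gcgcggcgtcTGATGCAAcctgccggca
PPP1R15B: ccgccccggcTGATGCAAcctcacgctg
JDP2: tagccggggcTGATGCAAcccgtccc
ASNS: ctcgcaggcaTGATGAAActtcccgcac
HERPUD1: gggcacgggcTGATGCAAcccgccgcgt
AARS1: ctaacttggcTGATGCAActgcgagaaa
SLC1A5: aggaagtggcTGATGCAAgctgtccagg
GARS1: gctcggagcaTGATGAAAtcgccgcgta
FGF21: tcctcctcccTGATGCAAtcctggtgtt
ATF3: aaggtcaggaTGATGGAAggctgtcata
The first 9 of these genes were called higher with E7386, and ATF3 was called lower. FGF21 was not called, but it lay below the median row, at 2.25 in DMSO and 2.28 with E7386. In all, 7 of 10 regulators, 6 of 20 eIF2 control, 7 of 24 partner and 33 of 43 target genes were called higher. Over all rows the share was 9.93%, and over the brighter rows 18.2%. TRIB3 and DDIT3, among others, rose without a match. A tie between the element and the rises was not tested. The site of CHAC1 lies at chr15:40953252-40953279, on the strand opposite to the gene, with its element 209 to 202 bases before the start, so that it is printed from the minus strand. That of CEBPG lies at chr19:33374061-33374088 on the plus strand, with the element 42 to 35 bases before the later of its annotated starts. The sites of the list genes lie on the minus strand at chr1:204412027-204412054 for PPP1R15B, chr7:97872459-97872486 for ASNS, chr19:46784894-46784921 for SLC1A5, chr7:30594835-30594862 for GARS1, chr19:48755460-48755487 for FGF21 and chr16:56931956-56931983 for HERPUD1. They lie on the plus strand at chr14:75427996-75428021 for JDP2, chr16:70289676-70289703 for AARS1 and chr1:212565206-212565233 for ATF3. Among list genes with a window, the element was found in 6 of 34 target genes, 1 of 17 eIF2 control genes and 2 of 19 partner genes. A match is a description of letters, and a window without one says nothing about binding.

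The whole CHAC1 window, chr15:40953221-40953470 on the plus strand of GRCh38.p14, is shown because CHAC1 had the largest rise among regulators with the element. The capitals mark the element, which on this strand reads in reverse complement.
CHAC1 promoter: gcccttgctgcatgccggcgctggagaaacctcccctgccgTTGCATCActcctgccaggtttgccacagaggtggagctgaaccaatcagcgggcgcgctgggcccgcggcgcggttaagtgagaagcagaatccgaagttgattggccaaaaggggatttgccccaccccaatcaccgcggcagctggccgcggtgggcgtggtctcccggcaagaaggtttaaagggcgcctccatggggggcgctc
The cAMP response element, TGACGTCA, was found in 1 regulator, PPP1R15A, in 2.03% of all genes and in 1.65% of all windows. Its window, chr19:48872171-48872420 on the plus strand, carries the element 58 to 51 bases before the start, in capitals.
PPP1R15A promoter: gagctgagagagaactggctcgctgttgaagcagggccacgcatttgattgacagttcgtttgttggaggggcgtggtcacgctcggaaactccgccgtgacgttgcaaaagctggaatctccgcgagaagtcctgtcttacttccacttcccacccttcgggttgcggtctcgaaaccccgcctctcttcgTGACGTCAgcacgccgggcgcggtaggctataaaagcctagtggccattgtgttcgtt

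The kinase genes differed in opposite directions. EIF2AK3, encoding PERK, read 6.13, 6.10 and 6.09 in the DMSO wells and 6.77, 6.47 and 6.58 in the E7386 wells. All E7386 wells were higher, and they were more spread out, with an SD of 0.16 against 0.017. The rise was 0.50 ± 0.10 (SE, n = 3 per group; limma adjusted p = 0.0137), or 1.41-fold. EIF2AK4, encoding GCN2, read 8.01, 8.12 and 8.17 in DMSO and 7.48, 7.47 and 7.50 with E7386. Here the treated wells were lower and almost equal, with an SD of 0.016. The fall was -0.62 ± 0.085 (limma adjusted p = 0.00280), a 1.53-fold decrease that held with any 1 well left out, where adjusted p ran from 0.00658 to 0.0160. EIF2AK4 was the only one of the 10 regulators called lower. The other eIF2 kinase genes were not called. EIF2AK1, for the heme-regulated kinase HRI, differed by 0.016 ± 0.11 with a 95% interval of -0.24 to 0.27, and EIF2AK2, for the double-stranded RNA-activated kinase PKR, by 0.19 ± 0.096 with an interval of -0.038 to 0.41.

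**Figure D1:**
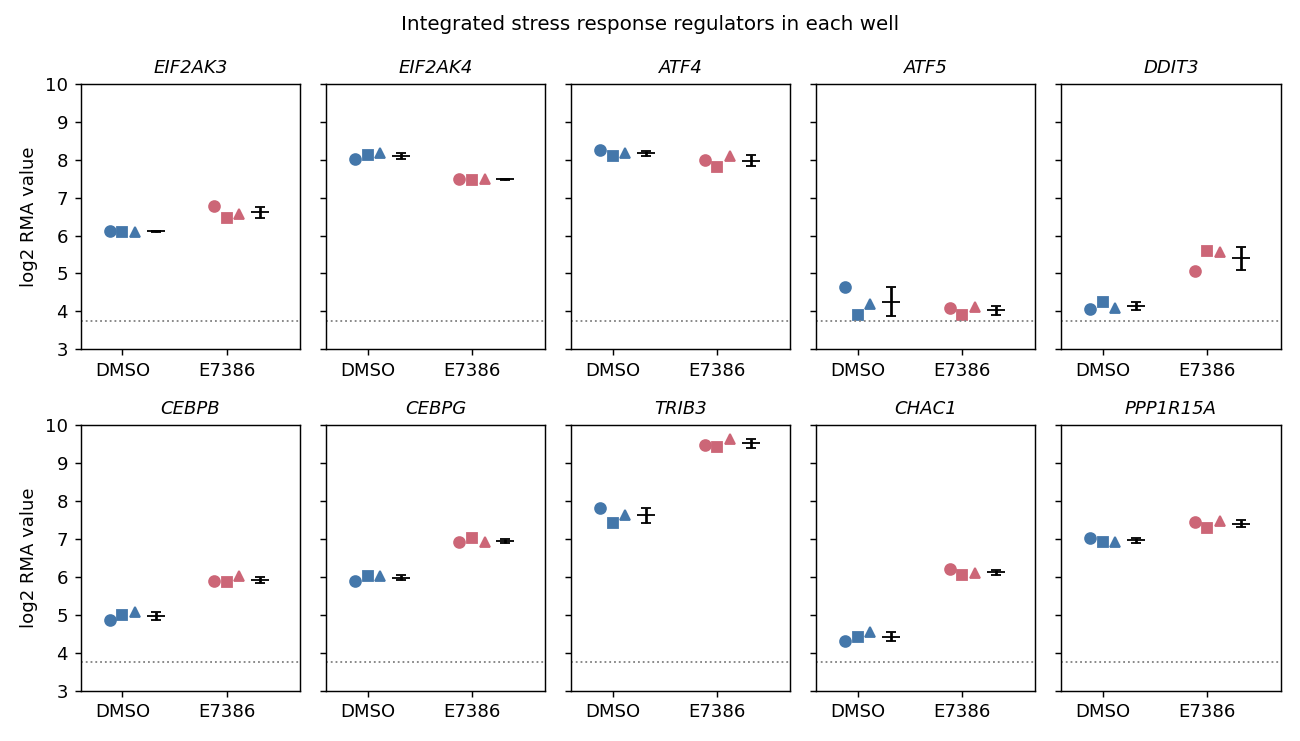
Log2 RMA values of the 10 regulators in each of the 6 wells, DMSO in blue and E7386 in red. Circles, squares and triangles are wells 1, 2 and 3, black marks are the mean ± SD of 3 wells, and the dotted line is the median row of the table at 3.75. The groups overlap only for ATF5, and EIF2AK4 and ATF4 are the other genes with lower treated wells.

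The transcript of the central factor, ATF4, did not rise. It read 8.24, 8.10 and 8.17 in DMSO and 8.00, 7.81 and 8.09 with E7386. The treated wells were all lower, although the third lay only just below the lowest DMSO well. The difference of -0.20 ± 0.10 was not called (limma adjusted p = 0.237), and its 95% interval of -0.44 to 0.036 lies below the smallest called rise among the regulators, 0.45. ATF4 has processed pseudogenes whose sequences could share probes with it, and this was not tested. ATF5, a close relative of ATF4 that is also controlled by upstream reading frames, read 4.66, 3.90 and 4.21 in DMSO and 4.08, 3.89 and 4.12 with E7386. The groups overlapped, and the first DMSO well stood above the other values. The difference of -0.22 ± 0.19 was not called (limma adjusted p = 0.489), with a wide interval of -0.66 to 0.21 and a value of -0.023 when that well was left out. ATF5 lay near the 55.3rd percentile of all rows in DMSO, where RMA compresses differences.

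Among the transcription factor genes, DDIT3, CEBPB and CEBPG rose. DDIT3 encodes CHOP, a C/EBP family factor that is induced in prolonged stress and forms dimers with other bZIP proteins. It read 4.07, 4.26 and 4.08 in DMSO and 5.06, 5.59 and 5.56 with E7386. The first treated well was the lowest of its group but still lay well above all DMSO wells. The rise was 1.27 ± 0.16 (limma adjusted p = 0.00172), or 2.41-fold, and from 1.17 to 1.44 with each well left out. Since DDIT3 started at the 54.1st percentile of all rows, the size of its rise is uncertain.

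CEBPB, encoding a C/EBP family factor that pairs with ATF4, read 4.86, 5.00 and 5.07 in DMSO and 5.88, 5.86 and 6.01 with E7386. The 2 groups were tight and well apart. Its rise was 0.94 ± 0.096, or 1.92-fold (limma adjusted p = 0.000769). CEBPG encodes C/EBPγ, a short C/EBP protein without a classical activation domain that also pairs with ATF4. It read 5.89, 6.02 and 6.01 in DMSO and 6.91, 7.01 and 6.92 with E7386, again with tight groups. Its rise of 0.97 ± 0.087, or 1.96-fold (limma adjusted p = 0.000429), was close to that of CEBPB. Among other C/EBP genes, CEBPD differed by 0.45 ± 0.13 and just missed the threshold (limma adjusted p = 0.0577), which it passed when rows below the median row were left out (limma adjusted p = 0.0202). CEBPA differed by 0.00050 ± 0.16, with an interval of -0.37 to 0.37, and lay below the median row.

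The feedback genes TRIB3 and CHAC1 showed the largest differences of the 10. TRIB3 encodes a pseudokinase that binds ATF4 and CHOP and dampens their activity. It read 7.81, 7.41 and 7.64 in DMSO and 9.47, 9.43 and 9.64 with E7386. The lowest treated well lay above the highest DMSO well by far more than the spread within groups. The rise was 1.89 ± 0.12, or 3.71-fold (limma adjusted p = 0.000137), with a 95% interval of 1.60 to 2.18. CHAC1 encodes a glutathione-degrading γ-glutamylcyclotransferase that is a known target of the ATF4 and CHOP branch. It read 4.32, 4.41 and 4.55 in DMSO and 6.19, 6.06 and 6.10 with E7386. Its rise of 1.69 ± 0.097, or 3.23-fold (limma adjusted p = 8.46e-05), had the smallest adjusted p of the 10 genes. The interval of 1.46 to 1.92 overlapped that of TRIB3. CHAC1 started at the 56.9th percentile of all rows, a level at which the size of a rise is uncertain, as for DDIT3.

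PPP1R15A, which encodes GADD34, the inducible partner of protein phosphatase 1, changed less. It read 7.02, 6.92 and 6.93 in DMSO and 7.45, 7.30 and 7.46 with E7386. The groups did not overlap, and the rise was 0.45 ± 0.091, or 1.36-fold (limma adjusted p = 0.0131). The call was lost without the third E7386 well, at a difference of 0.42 and an adjusted p of 0.0564. Its constitutive counterpart PPP1R15B rose by 0.35 ± 0.082 (limma adjusted p = 0.0241), a call that held only without the third DMSO well. Leaving out any other well gave a limma adjusted p of 0.0621 to 0.0866. CHAC2, the paralog of CHAC1, differed by 0.10 ± 0.12 and was not called, with an interval of -0.18 to 0.38. Of the paralogs of TRIB3, TRIB1 rose by 0.51 ± 0.084 (limma adjusted p = 0.00579), and TRIB2 differed by 0.033 ± 0.15 and was not called. Whether a regulator's difference exceeded that of its relative was not tested.

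**Figure D2:**
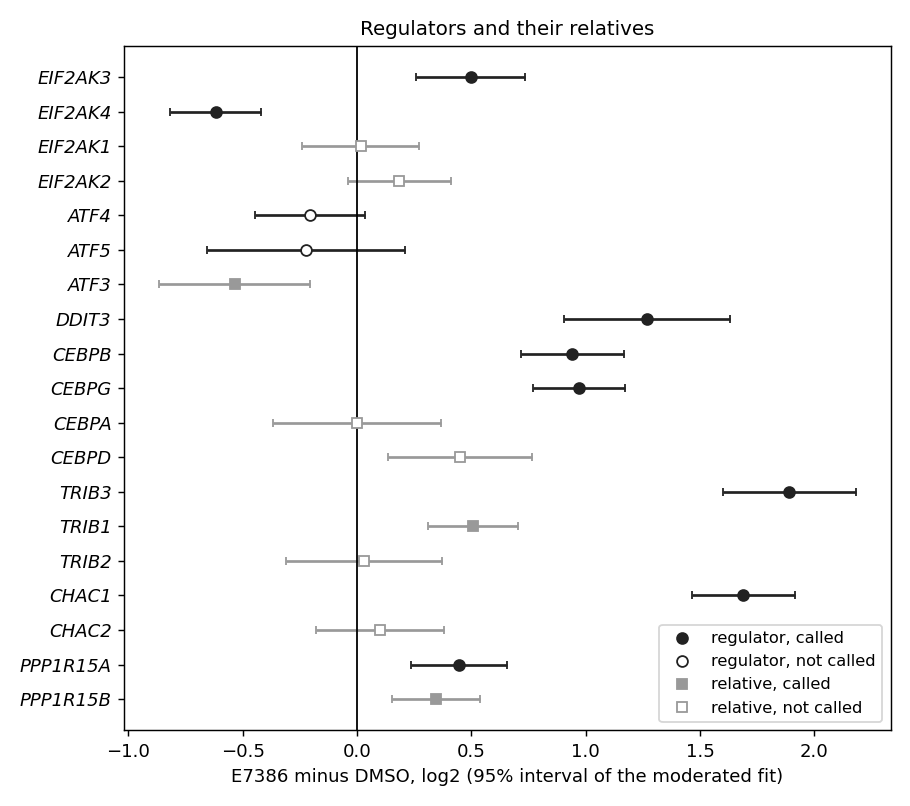
Differences of the 10 regulators (black circles) and 9 relatives (grey squares), with E7386 minus DMSO in log2 on the horizontal axis, 95% intervals of the moderated fit as bars and filled symbols for called genes. TRIB3, CHAC1 and DDIT3 lie above 1, ATF4 and ATF5 have intervals that include 0, and EIF2AK4 lies at -0.62.

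In order of their differences, the regulators ran from TRIB3, CHAC1 and DDIT3, the 3 that rose at least 2-fold, through CEBPG, CEBPB, EIF2AK3 and PPP1R15A to ATF4, ATF5 and EIF2AK4. The intervals of neighbours in this order overlapped, except that CEBPB, at 0.72 to 1.17, overlapped EIF2AK3, at 0.26 to 0.74, only at the edge, and PPP1R15A, from 0.24 upward, lay clear of ATF4. With each well left out in turn, the differences of DDIT3 and ATF5 moved most, and those of CEBPG least among the genes that rose, from 0.93 to 1.00.

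**Figure D3:**
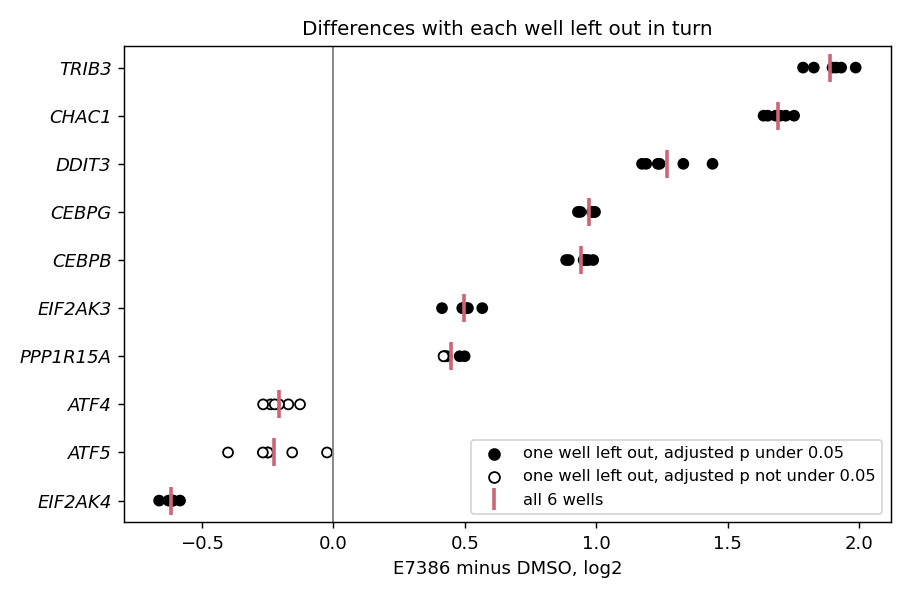
Differences of the 10 regulators with all 6 wells (red bars) and with each well left out in turn (circles, filled where the limma adjusted p was under 0.05), in log2 units. DDIT3, CEBPB, CEBPG, TRIB3, CHAC1, EIF2AK3 and EIF2AK4 keep their calls throughout, and PPP1R15A loses its call once, at 0.42.

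TRIB3 had the largest difference, and the rows most like it over the 6 wells were sought by the root mean square distance of log2 values, each gene set to its own DMSO mean. Only rows with a gene symbol were searched, without XIST and the genes of chromosome Y. The nearest were BHLHA15, which encodes a transcription factor of secretory cells, at a distance of 0.081, the endogenous retroviral envelope gene ERVMER34-1 at 0.089, and SESN2, which encodes a leucine sensor, at 0.096. BHLHA15 rose from 4.10 to 5.91, ERVMER34-1 from 4.78 to 6.72 and SESN2 from 5.69 to 7.50 in group means.

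The machinery around eIF2 changed in both directions and by less than 2-fold. Of 20 measured genes of eIF2, eIF2B, the phosphatase and regulators of the kinases, 6 rose, 2 fell and 12 were not called, with a median difference of 0.20. Of the brighter rows 18.2% were called higher and 15.1% lower, and of all rows 9.93% and 8.69%, so the share that fell was near the background. The largest falls were those of PPP1CC, a catalytic subunit of protein phosphatase 1, at -0.81 ± 0.085 (limma adjusted p = 0.000890), and EIF2B2, the β subunit of eIF2B, at -0.65 ± 0.092. PPP1CC read 9.87, 9.90 and 9.79 in DMSO and 9.09, 8.98 and 9.07 with E7386, so the groups were far apart beside their spread. EIF2B2 read 8.66, 8.51 and 8.53 in DMSO and 8.01, 7.91 and 7.85 with E7386, also without overlap.

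Among the rises were DNAJC3, an ER cochaperone that inhibits eIF2 kinases, by 0.50 ± 0.081 and DELE1, which carries mitochondrial stress to HRI, by 0.49 ± 0.10. EIF2S1, encoding the eIF2 subunit that the kinases phosphorylate, rose by 0.45 ± 0.11 and EIF2B4, the δ subunit of eIF2B, by 0.41 ± 0.094. DNAJC3 kept its call with each well left out, and DELE1 lost it without the third E7386 well (limma adjusted p = 0.0575). EIF2S1 lost its call without DMSO well 1 or 3 or E7386 well 2 or 3, and EIF2B4 without DMSO well 1 or 2 or E7386 well 1 or 3. The count of rises in the list fell from 6 to 2 without the first DMSO well, to 3 without the first or the second E7386 well and to 1 without the third, and it was 0 when a 1.5-fold difference was required. The count of falls stayed at 2 with any 1 well left out. Over all rows, the count called higher also fell with each well left out, from 2363 to between 1534 and 1978. In the other direction, 9 genes of the list were called higher and 3 lower without rows below the median row. Of the 11893 rows then kept, 2977 were called higher.

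Genes of other factors that pair with or resemble the regulators also went both ways. Of 25 listed genes 24 were measured, of which 7 rose, 5 fell and 12 were not called, with a median of 0.19, against 18.2% of brighter rows called higher and 15.1% lower, and 9.93% and 8.69% of all rows. XBP1, the factor of the IRE1 branch of ER stress, rose by 1.34 ± 0.096 from 8.03 ± 0.096 (SD, n = 3) to 9.37 ± 0.089. ATF6, encoding the sensor and factor of the third ER branch, rose by 0.67 ± 0.086. These are transcript levels, and the activity of neither branch was measured. NFIL3, a repressor of the bZIP class, rose by 1.26 ± 0.10 and NFE2L1, a stress-responsive bZIP factor, by 0.65 ± 0.083.

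The AP-1 subunit genes FOS and JUN, whose products can pair with ATF family proteins, fell by 1.09 ± 0.11 and 0.86 ± 0.11 on the log2 scale (limma adjusted p = 0.000800 and 0.00232). ATF3, a stress-induced repressor and known ATF4 target, read 6.74, 6.61 and 6.72 in DMSO and 6.44, 6.11 and 5.90 with E7386. It was lower in every treated well, by -0.53 ± 0.14 (limma adjusted p = 0.0371), while DDIT3, TRIB3 and CHAC1 were higher in the same wells. Its call held without the first E7386 well but was lost without each of the other wells, with adjusted p from 0.0716 to 0.110. The count of falls in this list was 3 without the third DMSO, the second E7386 or the third E7386 well.

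Most target genes of ATF4 and CHOP rose. Of 43 measured genes, taken from general knowledge, 33 rose, 1 fell and 9 were not called, against the 9.93% of all rows and 18.2% of brighter rows called higher, and the median difference was 0.63. The count of rises ran from 28 to 32 with each well left out. Several of these targets were already known to rise in these data when the list was written, so the count is a description. The largest rises were those of ALDH1L2, a mitochondrial folate enzyme, by 2.64 ± 0.11 and ULBP1, whose product is bound by the NKG2D receptor, by 2.63 ± 0.21. Both started near or below the median row, which makes their sizes uncertain, and they have no settled order.

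STC2, a secreted glycoprotein gene, rose by 1.88 ± 0.10, SESN2 by 1.82 ± 0.089, SLC1A4, a neutral amino acid transporter gene, by 1.65 ± 0.14 and KLHL24, a ubiquitin ligase adaptor gene, by 1.52 ± 0.11. SESN2 read 5.79, 5.60 and 5.66 in DMSO and 7.47, 7.51 and 7.53 with E7386, groups far apart beside their spread. In a grouping by function made after the values were seen, 9 of 10 enzymes of amino acid and one-carbon metabolism rose, 7 of 8 amino acid transporters and 6 of 7 genes of tRNA charging and export. Of 6 genes of secreted and surface proteins 5 rose, and of 9 genes of stress feedback and growth control 6 rose, 1 fell and 2 were not called. Over all rows 9.93% were called higher, and over the brighter rows 18.2%. Because the groups were cut from a list with known rises, these counts describe the list and test no function. All 3 genes of cell death in the list, TNFRSF10B, BCL2L11 and BBC3, were not called, with differences of 0.33, 0.23 and -0.026. DDIT4, an inhibitor of mTORC1 and the only target that fell, read 9.39, 9.44 and 9.22 in DMSO and 8.36, 8.26 and 8.52 with E7386, a difference of -0.97 ± 0.11 (limma adjusted p = 0.00114).

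**Figure D4:**
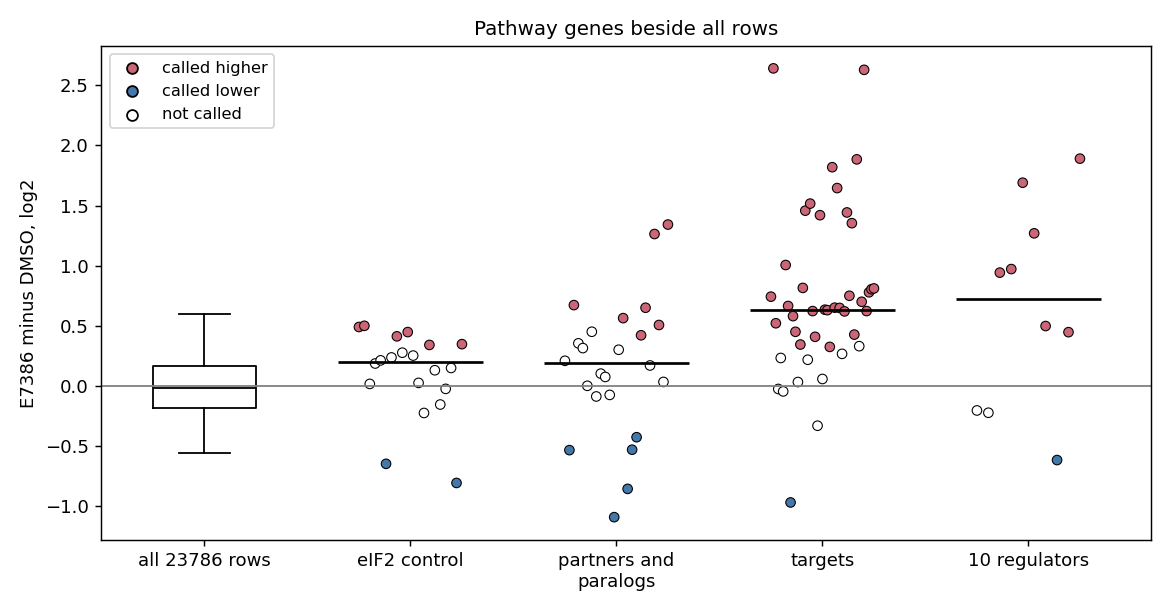
Differences (E7386 minus DMSO, log2) of the pathway lists and the 10 regulators beside all 23786 rows, for which the box spans the quartiles and the whiskers the central 90% of rows. Each point is a gene, red if called higher, blue if called lower and white if not called, and horizontal lines are list medians, at 0.20, 0.19, 0.63 and 0.72 from left to right.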

How the data were processed

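The deposited table holds log2 values. Per the submitters' processing notes the authors made them with RMA in affy 1.36.1. RMA gives no detection call and compresses differences of dim genes, and it makes the arrays' distributions alike. The sources used here do not name the probe set definition. Per the annotation, 22458 rows have 1 symbol, none several and 1328 none. The deposited values were fitted as they are with limma 3.58.1 in R 4.3.3, with treatment as the only term, over all rows and all 6 arrays, with a constant prior variance and Benjamini-Hochberg adjustment. The labels give no batch. The fit was tested on simulated data with independent noise in each row, which cannot speak for effects that genes of a well share. The regulators and lists were chosen with earlier results of these data known, and the grouping of targets by function after their values were seen. Named were all 10 regulators, 9 relatives and the 6 called genes with the largest difference in each list; JDP2, DDIT4, the cell death genes and genes with a promoter element were named after their values were seen. Promoter sequences come from RefSeq, GRCh38.p14. Alternatives were other normalizations, a filter, priors, tests and weights, leaving out each well, the replicate block and a minimum of 1.5-fold.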

Additional observations from a re-analysis of the deposited data

How the results depend on the processing

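Of 150 repeats of the 10 regulators' differences, over 15 alternative settings, 147 kept their direction and their side of the threshold and none changed sign. The exceptions were PPP1R15A, without the third E7386 well and under a 1.5-fold minimum, and EIF2AK3 under that minimum. Under the 1.5-fold minimum the calls over all genes fell to 2171, 1176 higher and 995 lower, those of the eIF2 control list to 0 higher and those of the partner list to 4 higher and 2 lower. Leaving out each well gave 2907 to 3635 calls over all genes, 1534 to 1978 higher and 1373 to 1657 lower, with 1 to 4 higher in the eIF2 control list and 3 to 5 lower in the partner list. The partner list, with 24 genes measured, had 11 called higher without rows below the median row and with an intensity trend, whether the prior was robust or not. In the main fit it had 7. The eIF2 control list had 9 higher and 3 lower in the same settings, against 6 and 2. Calls higher also became more frequent in the background. With the trend they rose from 2363 over all rows to 2957, or 2951 with the robust prior. Of the 11893 brighter rows, 2977 were called higher when fitted alone, against 2161. Genes that were not called changed sign in some settings. TRIB2 was at -0.031 after renewed quantile normalization, -0.12 without the second DMSO well and -0.0053 without the third E7386 well. CEBPA was at -0.0016 with median centring, -0.12 without the third DMSO well, and -0.0079 and -0.10 without the second and the third E7386 well. With single wells left out, TRIB2 reached 0.16, EIF2AK1 0.081 and CHAC2 0.18 at the other end. EIF2AK1 was at -0.060, -0.015 and -0.017 without the first DMSO, the second E7386 and the third E7386 well, and CHAC2 at -0.0070 without the second E7386 well. Same-numbered wells deviated together by correlations of 0.051, 0.12 and -0.0077. Differently numbered wells were not compared, so these values cannot decide whether the numbers pair the wells. With the replicate block 3701 genes were called, 7 regulators higher and 1 lower, and 4 genes of the eIF2 control list higher. Signal near or below the median row in DMSO limits what can be said of ATF5, DDIT3, CHAC1, CEBPA, ALDH1L2, ULBP1, FGF21, BBC3 and BHLHA15.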
